A study of Mus musculus with 8 samples.

Results

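The 4 Id genes (Id1, Id2, Id3 and Id4), the ligand genes Bmp2, Bmp4 and Bmp7, and Bambi were described across wild-type and lncSmad7-knockout mouse embryonic stem cells. They were taken by symbol from the deposited gene count table, where all 8 were found among 55292 features. E14 is a mouse embryonic stem cell line of the 129/Ola strain, and every culture was grown on gelatin with serum and leukaemia inhibitory factor. The groups, each of 2 libraries, were untreated wild-type E14, untreated lncSmad7-/- E14, and lncSmad7-/- E14 transfected with Smad7, for which the labels name 24 h; the last is called the Smad7-labelled group. The labels do not say how many knockout clones were used, or whether the replicates were separate cultures, so the p-values measure the spread between libraries alone, and that spread may be technical. The study set the knockout beside wild type and the transfected knockout beside the knockout, and no mock-transfected group was analysed here.

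Bone morphogenetic proteins (BMPs) are secreted dimers that bind type I and type II serine/threonine kinase receptors. The receptors phosphorylate Smad1, Smad5 and Smad9, which enter the nucleus with Smad4, and Smad6 and Smad7 are inhibitory Smads that the pathway itself induces. The Id genes are the classic direct targets. Id proteins are helix-loop-helix proteins with no DNA-binding region, and they bind E proteins and keep them from pairing with lineage-determining factors. In mouse embryonic stem cells grown with serum, BMP signals and Id proteins are known for holding back neural differentiation while leukaemia inhibitory factor limits other fates.

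The libraries held between 13392941 and 20209760 counts, the lowest totals being those of the Smad7-labelled group. Levels below are CPM, read counts relative to the library total after scaling with TMM factors, which set the bulk of genes level between libraries, and they are means ± SD with n = 2 unless single libraries are given. The share of mitochondrial counts was 1.53% and 1.58% in wild type, 1.37% and 1.4% in knockout cells, and 2.33% and 2.48% in the Smad7-labelled group. Counts of 4 Y-linked genes summed to 119 and 125 CPM in wild type, 4.1 and 4.84 CPM in knockout cells, and 10.1 and 10.2 CPM in the Smad7-labelled group. The knockout groups thus stood apart from wild type in Y-linked RNA, and this and the genotype cannot be told apart here. The 2 knockout groups also differed from each other in Y-linked RNA, and that difference and the transfection cannot be told apart either. With 2 libraries in a group no permutation test of a single gene can give a p below 0.33, so p-values are from edgeR's quasi-likelihood test across 17342 genes, with Benjamini-Hochberg adjustment and a threshold of 0.05, unless another fit is named.

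The feature named lncSmad7 had 14 and 12.4 CPM in the wild-type libraries, 7.14 and 5.52 CPM in the knockout libraries, and 10.8 and 11.2 CPM in the Smad7-labelled group. It was lower in the knockout but not absent from it, by 1.05 on the log2 scale (SE 0.12, adjusted p = 3e-14). Smad7 measured 97.6 and 97.7 CPM in wild type, 75.5 and 69.6 CPM in knockout cells, and 93.8 and 99.4 CPM in the Smad7-labelled group. Smad7 was therefore 1.33-fold above the knockout in those libraries (adjusted p = 3.2e-14) and its values there overlapped those of wild type. The lncSmad7 feature was higher there too, by 0.79 on the log2 scale (adjusted p = 9.3e-09). With TMM scaling the transfected gene reached no more than the wild-type level, so the group is named by its label throughout. That level depends on the scaling. Raw Smad7 counts were 1655 and 1747 in wild type, from library totals of 19260386 and 20209760. They were 1454 and 1837 in the Smad7-labelled group, from totals of 13392941 and 15972163. As a part of the library totals Smad7 was thus higher in the Smad7-labelled group than in wild type.

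Id1, Id2 and Id3 all fell in the knockout, Id4 rose, Bmp7 rose, Bambi fell, and neither Bmp4 nor Bmp2 passed the test. Of the 8 genes, 2 rose and 4 fell, where 34.5% of all genes tested rose and 33.3% fell. The median log2 fold change of the 8 was -0.30 and that of all genes tested was 0.02. With 11747 genes past the threshold, a passed test was the common outcome, so the sizes of the changes are given for each gene.

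**Figure D1:**
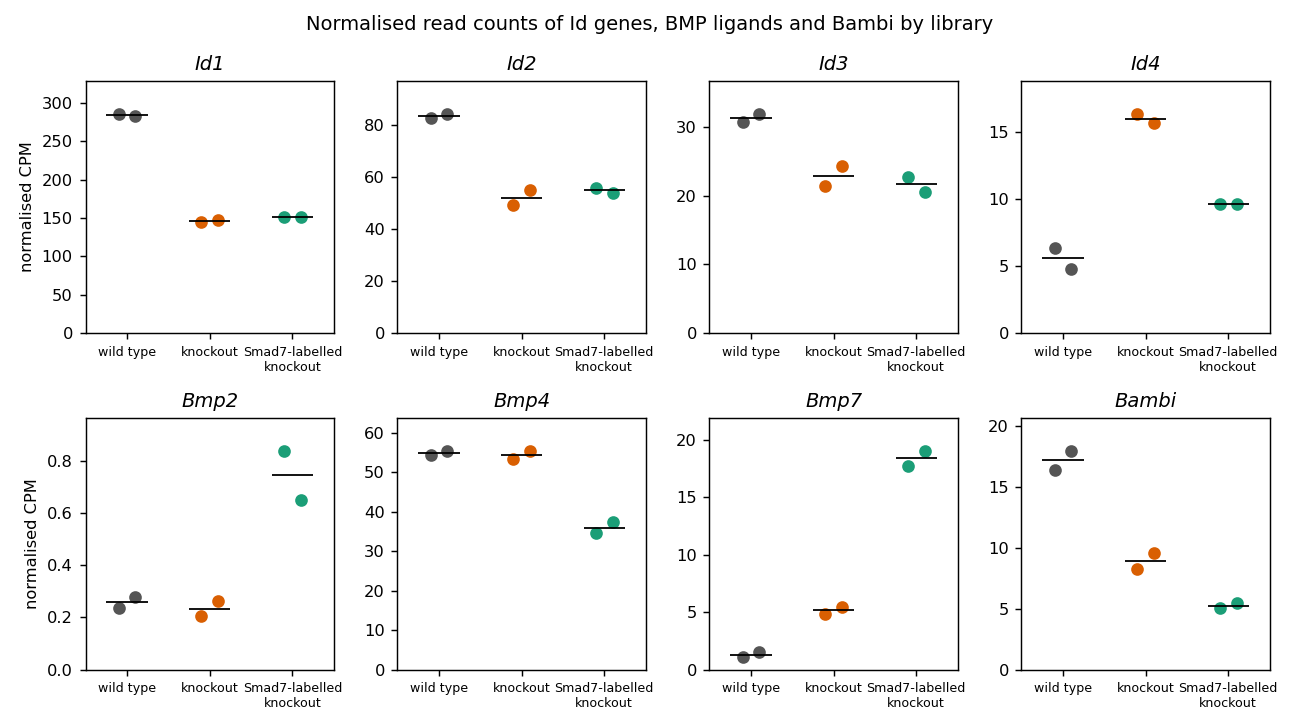
TMM-normalised CPM (vertical axes, each starting at 0) of the 8 genes in 2 wild-type, 2 knockout and 2 Smad7-labelled knockout libraries; points are libraries and lines are group means. Id1, Id2, Id3 and Bambi sit highest in wild type, Id4 in knockout cells, and Bmp7 in the Smad7-labelled group.

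Id1, the member of the family best known as a BMP target, had 286 and 283 CPM in the wild-type libraries, 145 and 148 CPM in the knockout libraries, and 151 and 151 CPM in the Smad7-labelled group. Both knockout libraries lay far below both wild-type libraries, and the spread within a group was at most 2.31 CPM (SD). The fall in the knockout was 0.96 on the log2 scale (SE 0.04, 95% interval -1.03 to -0.88, adjusted p = 1.4e-53), or 1.94-fold. In the Smad7-labelled group Id1 fell by 0.91 against wild type (SE 0.04, adjusted p = 4e-51).

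Id2, which in embryos marks several lineages including trophectoderm, had 82.3 and 84.1 CPM in wild type, 49 and 54.9 CPM in knockout cells, and 55.7 and 53.7 CPM in the Smad7-labelled group. The 2 knockout groups overlapped with each other and not with wild type. Id2 fell by 0.68 on the log2 scale in the knockout (SE 0.05, adjusted p = 3.8e-25). Id3 had 30.7 and 31.9 CPM in wild type, 21.4 and 24.3 CPM in knockout cells, and 22.7 and 20.5 CPM in the Smad7-labelled group. Again only the knockout groups overlapped, and Id3 fell by 0.45 in the knockout (SE 0.08, adjusted p = 3.6e-08). The falls of the 3 genes were thus ordered as their levels per kilobase of exon in wild type, from Id1 to Id2 to Id3, and the 95% intervals of the log2 fold changes, -1.03 to -0.88, -0.78 to -0.58 and -0.60 to -0.31, overlapped only between Id2 and Id3. These differences between genes were not tested.

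Id4 went the other way. Its 6.37 and 4.81 CPM in wild type stood against 16.4 and 15.7 CPM in the knockout and 9.62 and 9.63 CPM in the Smad7-labelled group, and no pair of groups overlapped. The rise in the knockout was 2.87-fold, or 1.52 on the log2 scale (SE 0.13, 95% interval 1.27 to 1.77, adjusted p = 1.6e-24). From the knockout to the Smad7-labelled group Id4 fell by 0.74 on the log2 scale (SE 0.11, adjusted p = 4.6e-10), which left it 1.73-fold above wild type (adjusted p = 8.4e-08). Id4 is the member of the family that is known to act also against the other Id proteins.

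The Id genes lie apart in the genome (GRCm38, GENCODE M21). Id1 is on chromosome 2 at 152736251-152737410 (plus strand), Id2 on chromosome 12 at 25093799-25097140 (minus strand), Id3 on chromosome 4 at 136143497-136145755 (plus strand), and Id4 on chromosome 13 at 48261228-48266026 (plus strand). Id4 shares 82 and 171 exon bases with the opposite-strand genes A330033J07Rik and Gm49291, which had at most 1 and 2 counts in any library. No source used here states whether the counting used strand, and without it reads of such partners cannot be told apart from those of Id4.

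Upstream windows of 250 bases before the RefSeq start were found for Id2, Id3, Id4 and Bmp4 (build GRCm38.p6), and were searched on both strands for 3 motifs. These were GGCGCC, the GC-rich element through which BMP Smads are known to act at Id genes, GTCT or AGAC, the short Smad-binding element, and CANNTG, the E box that E proteins bind. CANNTG can share end bases with a neighbouring match of the others. The stretches with a match are shown so that Id2 and Id3, which fell, can be read beside Id4, which rose, and Bmp4, which did not pass in the knockout; each is 30 bases, 5′ to 3′ on the gene's strand, with the match in capitals.
Id2, chr12:25096306-25096335 (minus strand), 231 bases before the start: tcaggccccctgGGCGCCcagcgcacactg
Id2, chr12:25096099-25096128 (minus strand), 23 bases before the start: gagtgcacataaaAGACgccccgcccggct
Id3, chr4:136143643-136143672 (plus strand), 166 bases before the start: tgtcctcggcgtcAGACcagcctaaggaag
Id3, chr4:136143741-136143770 (plus strand), 68 bases before the start: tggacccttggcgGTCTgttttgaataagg
Id4, chr13:48260956-48260985 (plus strand), 148 bases before the start: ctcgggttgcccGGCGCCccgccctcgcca
Bmp4, chr14:46390875-46390904 (minus strand), 222 bases before the start: ttggaaggtacagAGACtagttggtgcatg

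GGCGCC occurred once each before Id2 and Id4, and 9.59% of all 32851 such windows held it. It was thus present before a gene that fell and before one that rose in the knockout. GTCT or AGAC occurred in the windows of Id2, Id3 and Bmp4, and in 82.9% of all windows. CANNTG was found once before Id2 and 3 times before Bmp4, and in 66.2% of all windows. The window of Id3 lay wholly within annotated GENCODE exons and that of Id2 did so for 161 of its 250 bases, since these genes have annotated starts further upstream. A match is a string of letters and not a measured binding site. Sites further upstream than 250 bases were not searched, and no window was found for Id1.

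Per kilobase of annotated exon, which allows genes to be compared with each other, the Id family summed to 299 and 297 CPM per kilobase in wild type. The sum was 161 and 168 in knockout cells and 168 and 166 in the Smad7-labelled group. Id1 made up 82.4% and 82% of that sum in wild type, and 77.5% and 76.1% in the knockout. The share of Id4 was 0.55% and 0.42% in wild type, 2.64% and 2.43% in knockout cells, and 1.49% and 1.51% in the Smad7-labelled group. Id1 therefore set the family's total in every library, and the rise of Id4 was small beside it. With libraries scaled by their totals the Id family summed to 263 and 263, 157 and 164, and 195 and 192 CPM per kilobase in the 3 groups, so that the Smad7-labelled group lay above the knockout and below wild type.

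**Figure D2:**
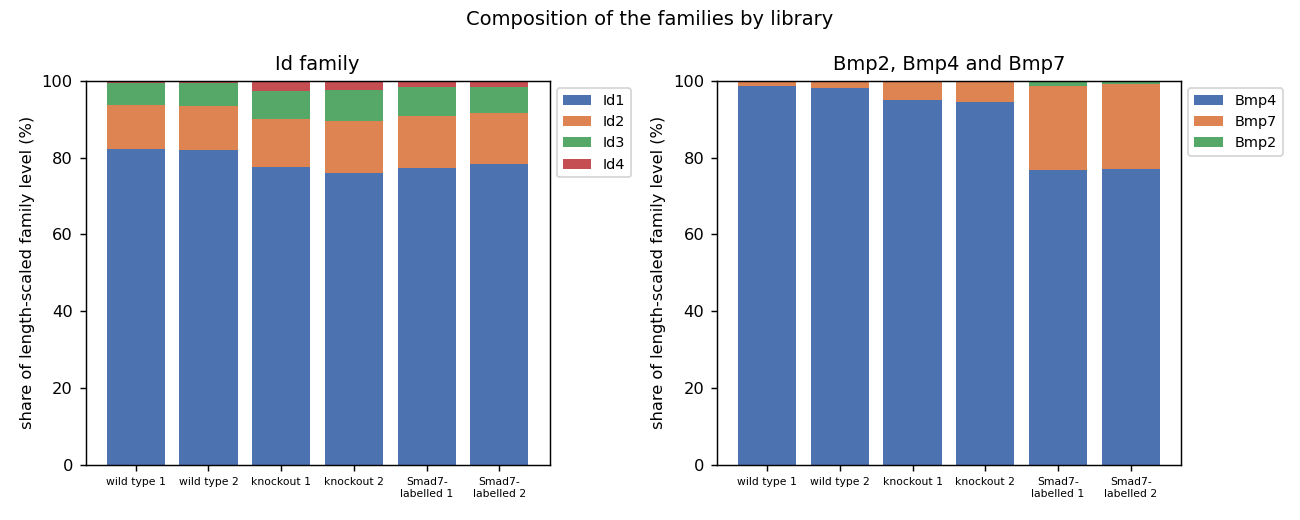
Share in percent (vertical axes, 0 to 100) of each gene in the summed CPM per kilobase of exon of the Id family, left, and of Bmp2, Bmp4 and Bmp7, right, in each of 6 libraries. Id1 holds 76.1% to 82.4% of the Id family in all 6 libraries, and Bmp7 reaches 22% of the ligands in the Smad7-labelled group.

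Bmp4 was the main ligand of the 3. It had 54.3 and 55.3 CPM in wild type, 53.4 and 55.4 CPM in knockout cells, and 34.6 and 37.3 CPM in the Smad7-labelled group. Wild type and knockout overlapped, and only the third group stood apart. The log2 difference between knockout and wild type was -0.01 (SE 0.06, 95% interval -0.12 to 0.10, adjusted p = 0.87). This value depends on the scaling: it was 0.13 (adjusted p = 0.029) when libraries were scaled by their totals, where the median of all genes was 0.17, and -0.21 (adjusted p = 0.00019) with offsets for GC content and transcript length. In the Smad7-labelled group Bmp4 fell by 0.59 on the log2 scale against the knockout (SE 0.06, adjusted p = 2.9e-17) and by 0.60 against wild type (adjusted p = 1.5e-17), and these comparisons share the same 2 transfected libraries. With libraries scaled by their totals these values were -0.35 (adjusted p = 1.4e-07) and -0.21 (adjusted p = 0.00098).

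Bmp7, a ligand known from kidney and eye development that can pair with Bmp2 or Bmp4 in heterodimers, was weakly expressed in wild type. Its raw counts were 19 and 27 in the wild-type libraries, 95 and 104 in the knockout libraries, and 274 and 352 in the Smad7-labelled group. Scaled, these were 1.12 and 1.51 CPM, 4.84 and 5.47 CPM, and 17.7 and 19 CPM. No pair of groups overlapped, although the last group had the smallest libraries. Bmp7 rose 3.89-fold in the knockout (log2 1.96, SE 0.24, adjusted p = 2.4e-15) and a further 3.57-fold in the Smad7-labelled group (log2 1.84, SE 0.13, adjusted p = 8.6e-32). Against wild type the latter stood 13.9-fold higher (95% interval 10.2 to 18.9, adjusted p = 1e-49), which was the largest change of the 8 genes in any of the 3 comparisons.

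Bmp2 was near the limit of detection. Its raw counts were 4 and 5 in the wild-type libraries, 4 and 5 in the knockout libraries, and 13 and 12 in the Smad7-labelled group. Pooled over a group, the 9, 9 and 25 counts gave exact Poisson 95% intervals, which cover counting error only, of 0.118 to 0.49 CPM, 0.107 to 0.442 CPM and 0.476 to 1.09 CPM. The third interval overlapped that of wild type and not that of the knockout. Between knockout and wild type the log2 difference was -0.14 with an interval of -1.53 to 1.24 (adjusted p = 0.86), so even a 2-fold change was not detectable at this depth. Bmp2 entered the test only because both Smad7-labelled libraries reached the filter of 0.517 CPM, which no other library did, so its higher value there (log2 1.63 against the knockout, SE 0.58, adjusted p = 0.0042) is given as a description. That p was 0.089 with DESeq2, 0.069 without the first knockout library and 0.059 without the first Smad7-labelled library.

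Per kilobase of exon, the ligands in wild type were ordered Bmp4 (24.4 CPM per kilobase), Bmp7 (0.33) and Bmp2 (0.07), and the order was the same in the other groups. Bmp4 made up 98.6% and 98.2% of the summed ligand level in wild type, 95% and 94.5% in knockout cells, and 76.8% and 77.1% in the Smad7-labelled group. Bmp7 took 1.14% and 1.5%, 4.82% and 5.22%, and 22% and 22%. The sum itself was 24.5 and 25.1 CPM per kilobase in wild type, 25 and 26.1 in knockout cells, and 20 and 21.5 in the Smad7-labelled group. That order turned with the scaling: with libraries scaled by their totals the ligand sum was 21.6 and 22.2 in wild type, 24.3 and 25.5 in knockout cells, and 23.2 and 24.9 in the Smad7-labelled group.

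Bmp4 lies on chromosome 14 at 46383520-46390669 (minus strand), Bmp2 on chromosome 2 at 133552159-133562885 (plus strand) and Bmp7 on chromosome 2 at 172868012-172940321 (minus strand). Bmp4 overlaps the opposite-strand genes Gm15217, with at most 3 counts in a library, and Gm15222, with 28 to 45 counts. The exons of Gm15222 share 0 bases with those of Bmp4.

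Over all 8 genes, Id1 was first per kilobase in every group, and what followed it changed. In wild type the order after Id1 (245 CPM per kilobase) was Id2 (34.1), Bmp4 (24.4), Id3 (17.5), Bambi (3.38), Id4 (1.45), Bmp7 (0.33) and Bmp2 (0.07). In the knockout Bmp4 (24.2) passed Id2 (21.3), and Id4 (4.16) passed Bambi (1.76). In the Smad7-labelled group Id2 (22.4) was again above Bmp4 (16), and Bmp7 (4.57) moved above Id4 (2.5) and Bambi (1.03). In each group every neighbouring pair in the order was separate in both of its libraries.

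Bambi encodes a transmembrane pseudoreceptor without a kinase domain that dampens BMP and activin signals and is itself a BMP target. It lies on chromosome 18 at 3507923-3516404 (plus strand). Bambi had 16.3 and 18 CPM in wild type, 8.26 and 9.57 CPM in knockout cells, and 5.03 and 5.46 CPM in the Smad7-labelled group. The 3 groups did not overlap and stepped down in that order. The fall of Bambi was 0.95 on the log2 scale in the knockout (SE 0.11, adjusted p = 6.4e-15) and a further 0.76 in the Smad7-labelled group (SE 0.14, adjusted p = 3.7e-07), for 1.70 in all against wild type (SE 0.13, adjusted p = 5e-28). The processed pseudogene Bambi-ps1 on chromosome 2 had 2 to 16 counts per library against 78 to 321 for Bambi. How reads shared by the 2 were counted was not tested.

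Between the knockout and the Smad7-labelled group, 2 of the 8 genes were called higher (Bmp7 and Bmp2), 3 fell (Id4, Bmp4 and Bambi) and 3 did not pass (Id1, Id2 and Id3). Of all genes tested, 37.8% rose and 36.8% fell. The median of the 8 was -0.02 and that of all genes was 0.04. Against wild type, 3 of the 8 were called higher and 5 lower, where 43.1% of all genes rose and 38.8% fell, and the medians were -0.57 and 0.09. Both comparisons share the transfected libraries. Bmp2 is in both counts of higher genes, although it entered the test only through the Smad7-labelled libraries, so its calls are a description. With DESeq2, where Bmp2 did not pass, 1 of the 8 was called higher against the knockout and 2 against wild type.

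Id1, Id2 and Id3, which had fallen in the knockout, were close to the knockout level in the Smad7-labelled group. The log2 differences from the knockout were 0.05 for Id1 (95% interval -0.03 to 0.12, adjusted p = 0.30), 0.07 for Id2 (-0.04 to 0.18, adjusted p = 0.23) and -0.08 for Id3 (-0.25 to 0.08, adjusted p = 0.34). A return to wild type would have needed 0.96, 0.68 and 0.45, above the upper bound of each interval. These 3 calls depend on the scaling. With libraries scaled by their totals the differences were 0.29 for Id1 (adjusted p = 2.8e-11), 0.32 for Id2 (adjusted p = 1.5e-07) and 0.16 for Id3 (adjusted p = 0.063), but the median of all genes was then 0.29, and relative to it Id1 lay at 0.01 under both scalings. With GC and length offsets they were 0.42 for Id1 (adjusted p = 1.7e-24), 0.13 for Id2 (adjusted p = 0.021) and 0.24 for Id3 (adjusted p = 0.0041), with the median of all genes at 0.03. Id1 (GC 54.7%, 1160 bases) and Id3 (55.6%, 1278 bases) have shorter and more GC-rich longest transcripts than the median gene tested (49.7%, 3015 bases), and Id2 (45.2%, 1969 bases) a shorter and less GC-rich one.

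**Figure D3:**
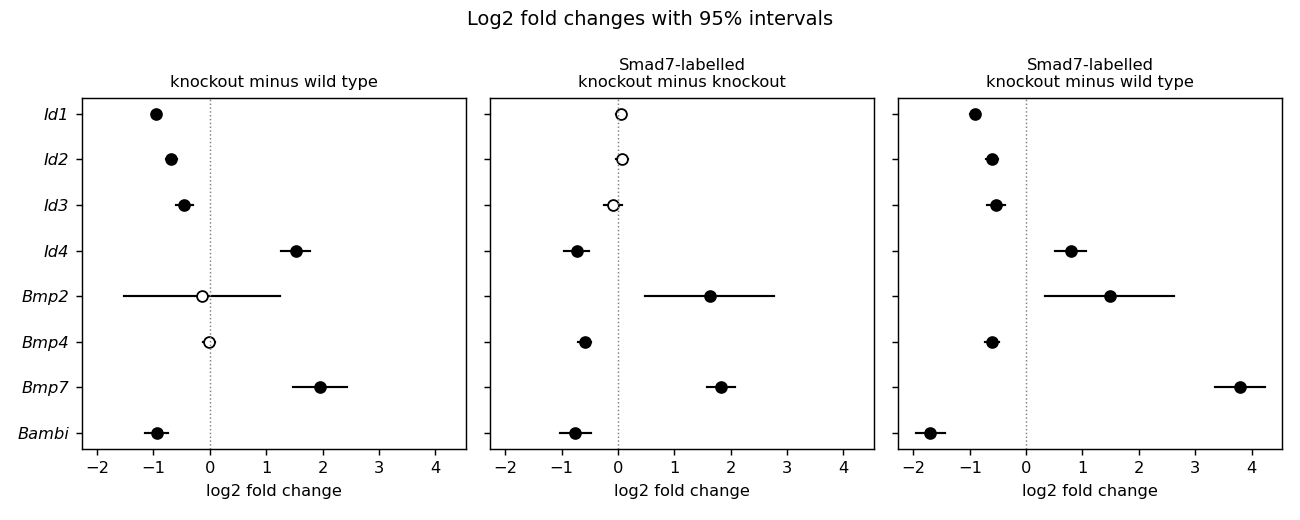
Log2 fold changes (horizontal axes) of the 8 genes in 3 comparisons, with lines for 95% intervals; filled points passed an adjusted p of 0.05 in edgeR's quasi-likelihood test and open points did not. Id1, Id2 and Id3 lie below 0 against wild type in both knockout groups and at about 0 between these groups, while Bmp7 is above 0 in all 3.

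**Figure D4:**
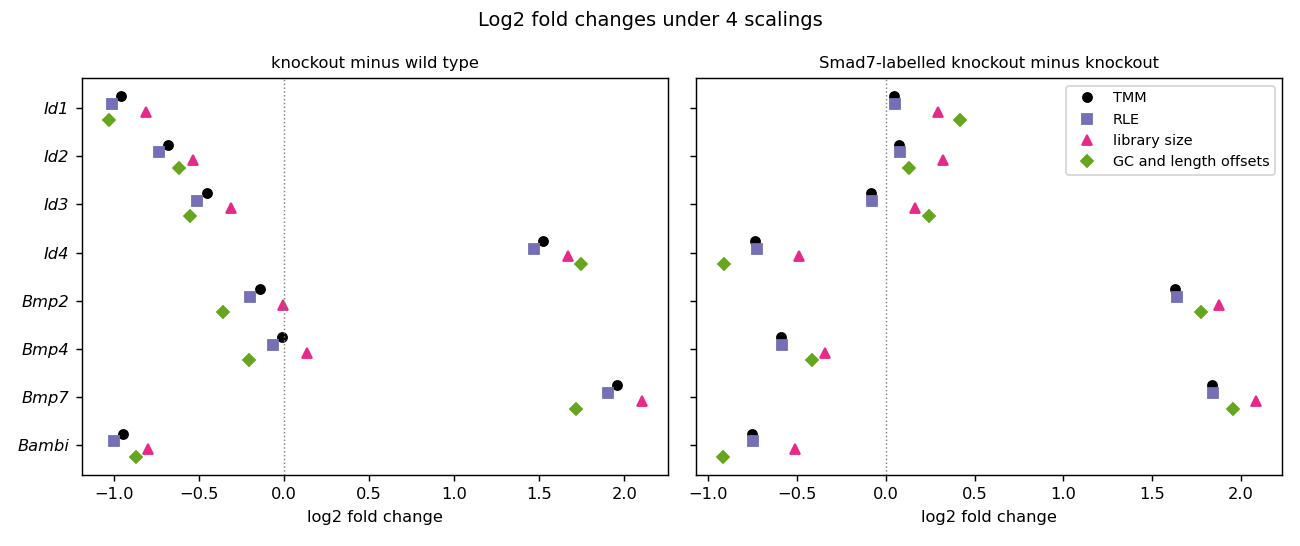
Log2 fold changes (horizontal axes) of the 8 genes under TMM, RLE and library size scaling and with offsets for GC content and length, for the knockout against wild type and the Smad7-labelled knockout against the knockout. Bmp4 on the left, and Id3 on the right, lie on both sides of 0, while Id4, Bmp7 and Bambi keep their side in both.

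Under these 4 scalings Id1, Id2, Id3 and Bambi were lower and Id4 and Bmp7 higher in the knockout than in wild type in each case, and all 24 of those tests passed. The range over all alternatives tried was -1.03 to -0.81 for Id1, -0.75 to -0.54 for Id2, -0.55 to -0.31 for Id3 and 1.33 to 1.75 for Id4. For Bmp7 it was 1.72 to 2.19 and for Bambi -1.04 to -0.80.

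Markers of other cell types were read beside these genes, since bulk counts cannot tell fewer cells of a type from less RNA per cell. All 11 primitive endoderm markers were lower in the knockout than in wild type (median log2 fold change -3.10), where 33.3% of all genes fell. Among them was Gata6, a transcription factor of that lineage, which fell by 5.46. Their sum was 425 and 415 CPM in wild type, 153 and 146 CPM in knockout cells, and 180 and 187 CPM in the Smad7-labelled group. Wild type was highest in that sum, as it was in Id1, Id2 and Id3, whose differences between the knockout groups did not pass. Of the 11 markers 6 rose and 1 fell from the knockout to the Smad7-labelled group, where 37.8% and 36.8% of all genes did. Of 10 pluripotency markers 9 rose in the knockout, where 34.5% of all genes did. From the knockout to the Smad7-labelled group 0 rose and 9 fell, beside 37.8% and 36.8% of all genes. The sum of the 10 was 5570 and 5610 CPM, 7490 and 7590 CPM, and 5130 and 5110 CPM in the 3 groups.

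The summed markers of trophectoderm ran from 42.4 to 46.9 CPM in wild type, 51.5 to 51.9 CPM in the knockout and 47.7 to 52.7 CPM in the Smad7-labelled group, with Elf5 at 0 in 4 of 6 libraries. Mesoderm markers summed to 7.1 to 7.73, 6.32 to 6.52 and 10.3 to 10.8 CPM, with T at 0 in 1 library. Neuroectoderm markers summed to 177 to 182, 158 to 162 and 142 to 145 CPM, with Neurog2 at 0 in all 6 libraries. Fibroblast markers summed to 7.55 to 8.33, 8.94 to 10.1 and 17.3 CPM, with Lum at 0 in 5 of 6 libraries. The trophectoderm, mesoderm and neuroectoderm sums hide moves in both directions. Of 6 tested trophectoderm markers 1 rose and 2 fell in the knockout. Tfap2c rose by 2.03 on the log2 scale, while Krt8 fell by 1.70 and Krt18 by 2.69. Of 6 tested mesoderm markers 1 rose and 2 fell there, where 34.5% and 33.3% of all genes did. Of 5 tested neuroectoderm markers 2 rose and 2 fell between the knockout and the Smad7-labelled group, beside 37.8% and 36.8% of all genes. The part of these cell types in the changes of the Id genes and ligands was not tested.

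Other genes of the pathway were read from 9 lists by role, 77 genes in all, of which 55 passed the filter on low counts. In the knockout 18 of the 55 rose, 16 fell and 21 did not pass, with a median log2 fold change of 0.11 beside 0.02 for all genes, and neither count stood far from the 34.5% and 33.3% of all genes that rose and fell. With libraries scaled by their totals the split was 23 to 13, and with GC and length offsets it was 14 to 20. Between the knockout and the Smad7-labelled group 27 rose and 17 fell (median 0.13 beside 0.04, with 37.8% and 36.8% of all genes), or 31 and 9 with totals as the scale. DESeq2 called 17 higher and 12 lower there. The 27 include Dlx3, Smad9 and Pcsk5, which passed the filter only through the Smad7-labelled libraries, where they were higher, so their calls are a description.

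Of 13 further BMP and GDF ligands 5 passed the filter, and 0 rose and 2 fell in each of these comparisons. Of all genes 34.5% and 37.8% rose in them, and 33.3% and 36.8% fell. Gdf3, named after its values were seen, is a ligand of the family known from pluripotent cells. It had 122 ± 1.1 CPM in wild type, 102 ± 2.66 CPM in the knockout and 52 ± 2.93 CPM in the Smad7-labelled group, and so fell with Bmp4 in the latter, by 0.97 on the log2 scale (SE 0.05, adjusted p = 7.4e-41). Bmp5, Bmp10 and Gdf2 had 0 counts in all 6 libraries. The other tested ligands, Bmp6, Bmp8a, Bmp8b and Gdf9, had means of 0.29 to 1.78 CPM in wild type.

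Of 5 genes for ligand processing 3 rose and 0 fell in the knockout (median 0.23), or 2 and 0 with GC and length offsets (median -0.03), where 34.5% of all genes rose. In the same list 4 rose between the knockout and the Smad7-labelled group (median 0.96), or 3 with DESeq2, where 37.8% of all genes did. Pcsk5, among the 4, had 8 and 9 counts in the Smad7-labelled libraries and at most 5 in any other. It passed the filter only through the Smad7-labelled libraries, so its call is a description. Furin, a convertase that cuts BMP precursors, rose from 17.6 ± 0.83 to 35.4 ± 2.04 CPM in the knockout (log2 1.01, SE 0.08, adjusted p = 1.5e-25) and had 35.5 ± 1.82 CPM in the Smad7-labelled group. Tll1, a protease that cleaves the BMP antagonist chordin, had 1.2 ± 0.2, 4.8 ± 0.85 and 12.9 ± 0.69 CPM in the 3 groups, and its log2 changes of 1.99 (adjusted p = 1.2e-14) and 1.42 (adjusted p = 9.5e-20) stepped up as those of Bmp7 did.

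Of 10 receptors and coreceptors 4 rose and 3 fell in the knockout (median 0.16), where 34.5% and 33.3% of all genes did. Between the knockout and the Smad7-labelled group 7 rose and 2 fell (median 0.56), beside 37.8% and 36.8% of all genes. With totals as the scale the splits were 6 to 3 and 8 to 0, and with GC and length offsets they were 3 to 3 (median -0.02) and 5 to 2. Bmpr2, the BMP type II receptor, had 65 and 61.8 CPM in wild type, 21.7 and 18.6 CPM in knockout cells, and 78.4 and 76.2 CPM in the Smad7-labelled group. It fell 3.14-fold in the knockout (adjusted p = 3.3e-53) and was 3.83-fold above the knockout in the third group (adjusted p = 1.1e-62). With GC and length offsets these changes were -1.24 and 1.09 on the log2 scale, beside -1.65 and 1.94 without them. Acvrl1, the type I receptor ALK1, had 7 and 7 counts in the wild-type libraries, 123 and 115 in knockout cells, and 240 and 309 in the Smad7-labelled group. Its log2 changes were 3.92 (SE 0.40, adjusted p = 4.4e-29) and 1.39 (SE 0.12, adjusted p = 1.6e-22). Acvrl1 passed the filter only through the knockout groups, where it was higher, so its change from wild type is given as a description.

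Eng, a coreceptor that works with ALK1, rose as well, from 21.5 ± 1.54 to 77.6 ± 1.82 and 133 ± 3.03 CPM, a log2 change of 1.85 in the knockout (SE 0.07, adjusted p = 1.2e-62). Acvr2a, another type II receptor, had 19.8 ± 0.19, 10.6 ± 1.08 and 25 ± 2.26 CPM and rose by 1.23 on the log2 scale between the knockout and the Smad7-labelled group (adjusted p = 4.7e-26), or 0.55 with GC and length offsets. Among the receptors named here changes thus went in both directions, and the knockout counts of the list lay near the share of all genes.

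Of 6 Smads 1 rose and 2 fell in the knockout, where 34.5% of all genes rose and 33.3% fell. Smad6, an inhibitory Smad induced by BMP that was named after its values were seen, was the one that rose, from 3.39 ± 0.29 to 6.81 ± 0.63 CPM (log2 1.01, SE 0.17, adjusted p = 1.7e-08). It moved against Id1, Id2, Id3 and Bambi there, and fell to 4.02 ± 0.25 CPM in the Smad7-labelled group (adjusted p = 6.2e-06). Of 12 secreted antagonists 6 passed the filter, and 2 rose and 2 fell in the knockout. Between the knockout and the Smad7-labelled group 4 rose and 0 fell (median 0.53), where 37.8% and 36.8% of all genes did. DESeq2 called 2 of them higher and 0 lower there. Nog had at most 8 counts in any library and Cer1 had 0 in all.

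Of 8 intracellular regulators 2 rose and 5 fell in the knockout, beside 34.5% and 33.3% of all genes. Skil, which encodes the Smad corepressor SnoN, fell from 266 ± 11.4 to 105 ± 1.85 CPM (log2 -1.34, SE 0.04, adjusted p = 1.7e-68) and had 202 ± 2.13 CPM in the Smad7-labelled group. With GC and length offsets its log2 change in the knockout was -0.96. From the knockout to the Smad7-labelled group it was then 0.36, beside 0.94 without offsets. Of 12 other BMP-responsive transcription factors 9 passed the filter, and 5 rose and 0 fell in the knockout (median 0.50), where 34.5% and 33.3% of all genes did. With GC and length offsets 4 rose and 1 fell. Gata2 rose by 1.86 on the log2 scale (4.26 ± 0.4 to 15.4 ± 0.27 CPM, adjusted p = 5.1e-29). Klf4, which is also a naive pluripotency factor, rose 3.03-fold (111 ± 3.61 to 336 ± 2.86 CPM, adjusted p = 3.8e-79).

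**Figure D5:**
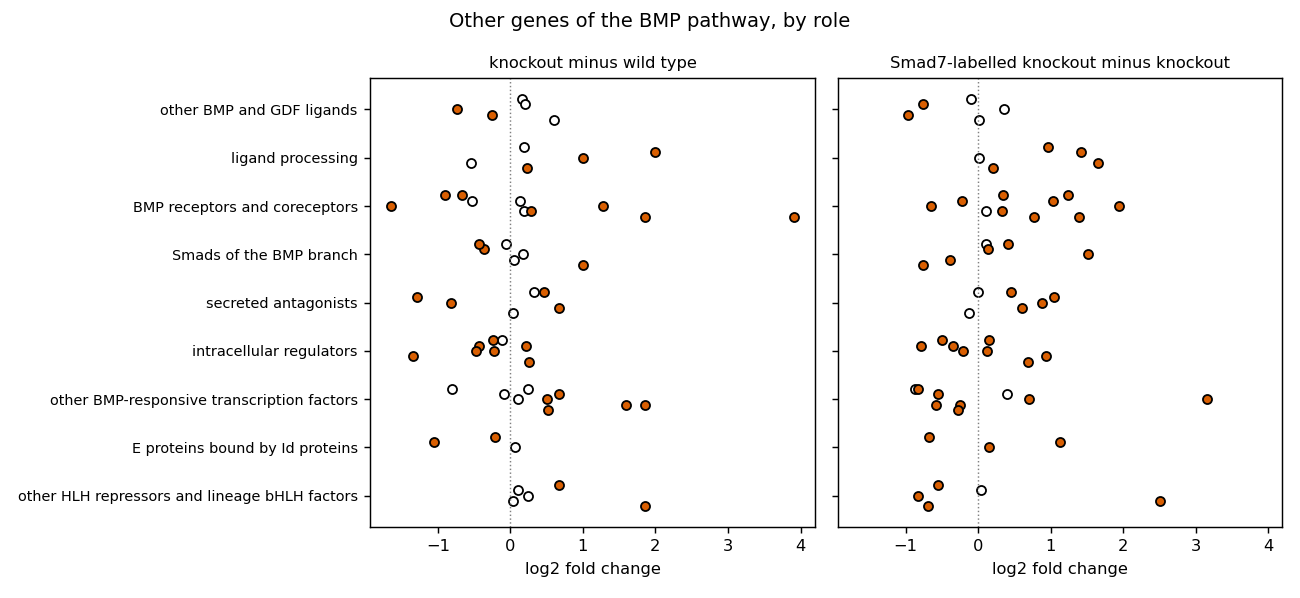
Log2 fold changes (horizontal axes) of the 55 tested pathway genes in 9 role lists, for the knockout against wild type and the Smad7-labelled knockout against the knockout; filled points passed an adjusted p of 0.05 and open points did not. Most lists have points on both sides of 0, and the highest point on the left is Acvrl1 at 3.92, which had 7 counts in each wild-type library.

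The E proteins, the partners that Id proteins bind, were also read. In the knockout 0 of 3 rose and 2 fell, or 1 and 1 with totals as the scale, where 34.5% of all genes rose and 33.3% fell without it. Tcf4 fell from 79.9 ± 4.36 to 38.4 ± 2.52 CPM (log2 -1.05, SE 0.06, adjusted p = 3.6e-40) and had 84.2 ± 0.58 CPM in the Smad7-labelled group (log2 1.13 above the knockout, adjusted p = 1.5e-43). With GC and length offsets the log2 change of Tcf4 was -0.65 in the knockout, and the Smad7-labelled group was 0.46 above the knockout. Among 10 other helix-loop-helix genes 5 passed the filter, and 2 rose and 0 fell in the knockout, beside 34.5% and 33.3% of all genes. Neurod1, a neuronal factor that pairs with E proteins, had 2.52 ± 0.31 CPM in wild type, 2.59 ± 0.13 CPM in the knockout and 14.8 ± 0.76 CPM in the Smad7-labelled group, 5.67-fold above the knockout (adjusted p = 4.1e-36).

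The genes whose course over the 6 libraries was most like that of a member were found among 10310 genes with a mean of at least 5 CPM, by the root mean square difference of centred log2 values. For Id1 they were Ppp4r2 (0.02), Tax1bp1 (0.04) and Lin9 (0.04), and for Id2 the closest was Iws1 (0.03). For Id3 they were Stn1 (0.02), Sccpdh (0.02) and Rbak (0.02), and for Bmp4 they were Atp6v1f (0.02), Pacsin2 (0.02) and Rangap1 (0.02). Ppp4r2, for instance, had mean levels of 98.9, 50.5 and 52.1 CPM in the 3 groups, and Atp6v1f had 64.3, 64.7 and 42.9 CPM. None of the genes named here as most alike was in the pathway lists.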

How the data were processed

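Poly(A)-selected RNA was sequenced on an Illumina NextSeq 500 from TruSeq RNA libraries, per the labels' protocols. The values deposited by the authors are raw read counts, with 1 row per gene symbol. The submitters' processing notes name STAR and featureCounts 1.6.3, and no source used here states the annotation release, the strand setting or how shared reads were treated. Of the columns 6 were used, and 2 that match no sample's labels were left out. The knockout transfected with lncSmad7 was therefore not analysed here.

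Genes were filtered with filterByExpr (minimum count 10), which kept 17342, and scaled with TMM. The quasi-likelihood test of edgeR 4.0.16 was run robustly in R 4.3.3 (with limma 3.58.1) over 3 groups and 6 libraries, with 3 residual degrees of freedom, in 3 comparisons. It was tested on simulated data. The common biological coefficient of variation was 2.47%. Replicates differed beyond sampling noise (chi-square per degree of freedom 1.57 to 1.89). Gene positions, exon lengths and GC content came from GENCODE M21, which matched 16969 of the genes tested, and sequences from RefSeq. Alternatives were RLE and library size scaling, GC and length offsets (mgcv 1.9.3), other filters, DESeq2 1.42.0, limma voom, a 1.2-fold minimum, fits of 4 libraries, a replicate block, and each library left out.

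The 8 genes and all lists were chosen with earlier results of these data known. Named besides were list genes past an adjusted p of 0.05 with a mean of at least 5 CPM and a log2 change of at least 1, up to 4 per list and comparison, the 3 genes most like Id1, Id2, Id3 and Bmp4 (pseudocount 0.5 CPM, clone names left out), and Smad7 and lncSmad7. Not every gene this rule takes is reported here.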

Additional observations from a re-analysis of the deposited data

How the results depend on the processing

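Between the knockout and wild type the calls of Id1, Id2, Id3, Id4, Bmp2, Bmp7 and Bambi were the same in every alternative that tested them. Bmp4 turned to 0.13 with library size scaling, and passed at -0.21 with GC and length offsets. Between the Smad7-labelled knockout and the knockout 5 members were called, and 8 with GC and length offsets, where Id3 turned to 0.24. Id1 (0.15) and Id2 (0.18) also passed when genes needed 1 CPM in 4 libraries. Of the pathway genes 44 were called there and 29 by DESeq2, and Gata2 turned to 0.000703 with library size scaling. Against wild type Bmpr2 turned to -0.15 and Tcf4 to -0.19 with GC and length offsets, which used the 97.8% of genes with values, and Id3 (-0.15, adjusted p = 0.076) no longer passed with library size scaling. Library size scaling moved the share of higher calls among all calls from 50.9%, 50.7% and 52.6% to 61.7%, 65.7% and 68.3% in the 3 comparisons, and the medians of all genes to 0.17, 0.29 and 0.48. The cause was not tested.

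Leaving out 1 library gave 6 members called in each case for the knockout against wild type, 4 to 5 for the Smad7-labelled knockout against the knockout and 7 to 8 against wild type; the lone library is assumed to vary like the other groups. The members lost were Bmp2 in each case. Against wild type its adjusted p was 0.0084, and 0.12 with DESeq2, 0.077 without the first wild-type library and 0.08 without the first Smad7-labelled library. Replicate numbers did not pair the libraries (correlations of same-numbered deviations 0.03, 0.03 and 0.01), and a replicate block left the members called at 6, 5 and 8. Depth limits Bmp2 and, in wild type, Bmp7.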
